A study of Mus musculus with 27 samples.

Results

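The 6 long noncoding RNAs described here, Malat1, Neat1, Miat, Tug1, Gas5 and Snhg11, were chosen by name from the table of whole retina RNA in C57BL/6J mice. The table lists 38168 features, and 8 of these carry one of the 6 symbols, because Malat1 and Miat are each listed 2 times under 1 Gene ID. For these genes the entry with the higher mean was used, and the second entry is given beside it. The study followed normal retinal development with 27 libraries of wild type mice that received no treatment, taken at embryonic days 14 (E14, n = 3) and 17 (E17, n = 3) and postnatal days 1 (P1, n = 4), 6 (P6, n = 3), 15 (P15, n = 4), 28 (P28, n = 4) and 60 (P60, n = 6). Each library was made from a pool of embryos or of postnatal mice, except that at P60 2 were pools and 4 were single mice, and which ones these were is not stated in the sources used here. Samples up to P1 held both sexes and later samples held males, so sex composition and age cannot be told apart between the early and the later libraries. E14 and E17 are called embryonic here (6 libraries), and P15, P28 and P60 are called mature (14 libraries).

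Most long noncoding RNAs of this kind act in the nucleus, and they are known for cell-type and stage-specific patterns in neural tissue. Malat1 gathers in nuclear speckles, which are stores of splicing factors. Neat1, transcribed next to it, is the scaffold of paraspeckles, nuclear bodies that hold back RNAs and RNA-binding proteins. Miat, also called Gomafu or Rncr2, forms its own nuclear foci in neurons and binds splicing factors, and knockdown work in retina tied it to cell specification. Tug1 takes its name from its rise under taurine in retinal cells, where its depletion disturbed photoreceptors. Gas5 and Snhg11 are host genes: small nucleolar RNAs (snoRNAs), guides for chemical marks on ribosomal RNA, lie in their introns. The spliced Gas5 RNA is a classical target of nonsense-mediated decay, which destroys RNAs whose reading frame ends early.

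In the GENCODE annotation of the GRCm38 genome, Malat1 lies at chr19:5795690-5802672 and Neat1 at chr19:5824708-5845478, both on the minus strand and 22.0 kb apart. Miat lies at chr5:112213228-112229395 and Tug1 at chr11:3639785-3649673, both also on the minus strand. Gas5 lies at chr1:161034422-161038539 and Snhg11 at chr2:158375638-158386145, both on the plus strand. GENCODE classes Snhg11 as protein coding, although it is used as a noncoding host gene here.

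The sequence features that set these RNAs apart are shown first, because the values below concern RNAs with very different ends and repeats. The mature 3′ ends of Malat1 and of the long Neat1 transcript do not carry an ordinary poly(A) tail. This does not extend to the short Neat1 transcript. The ends of Malat1 and of long Neat1 are known to fold into a triple helix in which U-rich runs clasp an A-rich run at the very end. The stretches below are 110 bases each and end at that A-rich run, as written in the annotated transcripts Malat1-201 and Neat1-201, with T for U. Capitals mark the T-rich runs (at least 3 T, then 1 or 2 G or C, then at least 4 T) and the A-rich run. The marks are matches of letters, and not every marked T-rich run need be part of the triple helix.
Malat1 3′ end: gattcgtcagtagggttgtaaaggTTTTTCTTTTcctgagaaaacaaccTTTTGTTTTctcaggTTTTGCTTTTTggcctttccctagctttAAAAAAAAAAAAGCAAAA
Neat1 3′ end: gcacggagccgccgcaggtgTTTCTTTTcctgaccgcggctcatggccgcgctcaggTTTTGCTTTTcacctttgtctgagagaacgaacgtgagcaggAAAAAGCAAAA
The Neat1 stretch ended the annotated transcript, whereas 292 annotated bases followed the Malat1 stretch, where the known small tRNA-like RNA is cut off. The A-rich run was searched for as at least 4 A followed by GCAAAA, so the shared last letters of the stretches were set by that search. Libraries here were made from total RNA, so detection of these ends did not depend on a poly(A) tail as it would after oligo-dT selection.

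Miat is known for copies of a short repeat that resembles the branch point of introns and binds the splicing factor SF1. The 240 bases below hold a cluster of 4 copies in the longest annotated transcript, Miat-205, at positions 4887 to 5126 of 9163. Capitals mark ACTAAC, with the T before it where it is present.
Miat repeat cluster: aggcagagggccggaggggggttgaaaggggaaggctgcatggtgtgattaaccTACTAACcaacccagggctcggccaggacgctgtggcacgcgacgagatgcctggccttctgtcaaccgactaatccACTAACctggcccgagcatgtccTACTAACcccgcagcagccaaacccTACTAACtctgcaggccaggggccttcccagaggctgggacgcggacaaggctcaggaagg
Miat-205 held 11 copies of ACTAAC, or 1.20 per kb, of which 6 read TACTAAC. Across the 4189 genes whose longest transcript has at least 5000 bases, the median was 0.106 per kb, and 2 genes, Miat included (0.0477%), reached the density of Miat. The longest transcripts of Malat1 held 0 copies, of Neat1 4, and of Tug1, Gas5 and Snhg11 1 each.

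RefSeq promoter windows on GRCm38.p6 (250 bases before to 50 after a start site) were at hand for 5 of the 6 genes, Neat1 being the exception, and Gas5 had 2. Those of the genes with a change of at least 1 on the log2 scale between embryonic and mature retina are printed. For Gas5 the window at the inner start is shown. Capitals mark 6 motifs, each searched on both strands. These were the GC box GGGCGG, the cAMP response element TGACGTCA, the TATA box, written TATAAA, the promoter box known as CCAAT, the E-box written as CACGTG, and a site of the kind bound by the photoreceptor factor CRX, which reads TAATCC.
Miat promoter, chr5:112228899-112229198, minus strand: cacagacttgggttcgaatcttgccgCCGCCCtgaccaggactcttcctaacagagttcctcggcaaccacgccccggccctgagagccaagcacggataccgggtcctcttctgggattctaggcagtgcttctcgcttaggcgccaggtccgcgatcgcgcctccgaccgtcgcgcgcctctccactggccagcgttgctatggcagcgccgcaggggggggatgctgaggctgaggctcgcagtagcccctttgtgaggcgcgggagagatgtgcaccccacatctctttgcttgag
Gas5 promoter, chr1:161034916-161035215, plus strand: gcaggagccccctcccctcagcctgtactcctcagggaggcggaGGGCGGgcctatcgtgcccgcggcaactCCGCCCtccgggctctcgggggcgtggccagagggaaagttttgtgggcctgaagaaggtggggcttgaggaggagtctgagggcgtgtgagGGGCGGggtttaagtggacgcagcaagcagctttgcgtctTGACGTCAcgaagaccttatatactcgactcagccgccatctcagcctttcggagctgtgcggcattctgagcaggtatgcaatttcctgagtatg
Snhg11 promoter, chr2:158375463-158375762, plus strand: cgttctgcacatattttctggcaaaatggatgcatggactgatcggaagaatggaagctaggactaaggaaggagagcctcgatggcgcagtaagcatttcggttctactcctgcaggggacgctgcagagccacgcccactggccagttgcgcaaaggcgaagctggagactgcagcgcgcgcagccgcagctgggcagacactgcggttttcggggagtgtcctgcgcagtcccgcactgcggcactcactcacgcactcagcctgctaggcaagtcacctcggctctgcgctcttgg
The Gas5 window held TGACGTCA, present in 1.79% of the 32851 windows, from 46 to 39 bases before the start, and 3 copies of GGGCGG, a motif found in 35.7% of windows. The other Gas5 window held no TGACGTCA and 5 copies of GGGCGG. The Miat window held GGGCGG 1 time, in reverse. The Snhg11 window held none of the 6 motifs, nor did that of Malat1. TATAAA (13.6% of windows), CCAAT (37.4%), CACGTG (7.15%) and TAATCC (7.06%) matched in no window of these genes. These are matches of letters and not measured binding.

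Values are cpm, the reads of a feature relative to the counted reads of its library, scaled up by a fixed factor. Listed values summed to 999814 to 999882 per library, so shares of reads below are shares of counted reads. Whole reads recovered from the steps between values came to 7076646 to 11330762 per library. Each value of 1 read was worth 0.0882 to 0.141 cpm, and all 6 genes passed the filter of 1 cpm in at least 3 libraries. Together the 8 entries took 0.776% to 1.72% of counted reads. Markers of the retina were present. The summed level of 5 rod and cone genes was 92.6 to 200.4 cpm in embryonic and 11032 to 20023 cpm in mature libraries, and that of 5 progenitor genes was 4727 to 5824 and 15.1 to 28.8 cpm. Markers of other tissues were at lower levels. The 8 genes of the retinal pigment epithelium (RPE) summed to 5.17 to 14.7 cpm in embryonic and 128 to 215 cpm in mature libraries, of which Rlbp1, which Müller glia share, made up 96.1 to 157 cpm in mature libraries. Lens markers (4 of 8 in the table) stayed between 2.26 and 6.95 cpm over these libraries, vessel markers (4 genes) moved from 5.50 to 8.89 up to 76.8 to 102 cpm, blood markers (5 genes) from 12.5 to 20.8 up to 19.9 to 43.3 cpm, and microglial markers (4 genes) from 13.4 to 18.7 to 9.66 to 22.4 cpm. These shifts in cell content run alongside every comparison below, and their part in the results was not tested. In whole tissue, fewer cells of a type and less RNA per cell cannot be told apart. At P60, replicates 3 to 6 stood apart: 18S ribosomal RNA (Rn18s) was at 4.52 to 31.3 cpm against 113 to 798 in replicates 1 and 2, and library correlations were lower than at other ages (lowest r = 0.94). E17 replicate 2 held 13464 cpm of Rn18s. Calls of the 6 genes that rest on P60 are given with and without its replicates 3 to 6.

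Between embryonic and mature retina, Malat1, Neat1 and Snhg11 rose and Miat, Tug1 and Gas5 fell. All 6 passed an adjusted p of 0.05 in limma, 3 higher and 3 lower. Such calls were common, since 35.0% of the 31760 features tested were called higher and 40.4% lower. Neat1 and Snhg11 rose and Miat and Gas5 fell by at least 1 on the log2 scale, where 14.9% of features were higher and 16.1% lower. Every one of the 6 also varied over the 7 ages in the F test, as did 83.0% of features.

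**Figure D1:**
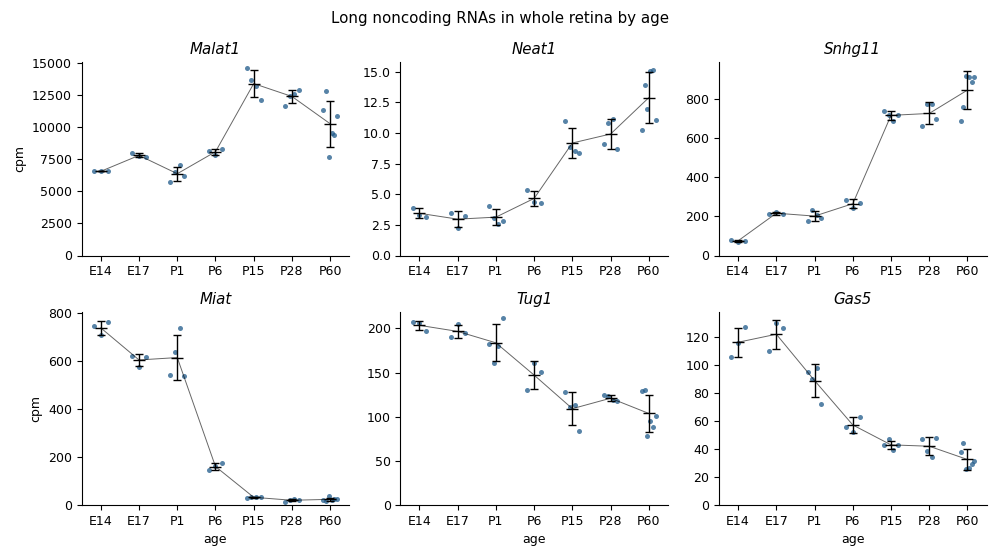
Level of each long noncoding RNA (cpm, linear axis from 0) at the 7 ages. Points are libraries, and bars are the mean ± SD of 3 to 6 libraries per age. In cpm, the means of Malat1, Neat1 and Snhg11 gain most between P6 and P15, while Miat drops from 613 cpm at P1 to 32.9 cpm at P15.

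Snhg11 was the gene with the largest rise. Its introns hold snoRNAs, as given above. Its level at E14 was 78.8, 70.7 and 75.9 cpm, and at E17 it was 213, 225 and 211 cpm. P1 libraries held 176, 233, 206 and 191 cpm, and P6 libraries 285, 242 and 268 cpm. After P6 the level moved to a new range. P15 libraries held 740, 721, 688 and 718 cpm, P28 libraries 661, 772, 774 and 699 cpm, and P60 libraries 688 to 918 cpm with a median of 899. No mature library fell within the embryonic range, which was so for 40.4% of features tested, and the mature mean was 5.32 times the embryonic mean. The log2 fold change was 2.56 ± 0.06 (SE; n = 14 and 6; limma, adjusted p = 3.9e-27). From E14 to E17 Snhg11 rose by 1.51 ± 0.10 on the log2 scale (adjusted p = 2.7e-13), a step in which 7.56% of features were called higher and 3.02% lower, and none of the other 5 RNAs was called. In a limma fit of E14 and E17 alone, Malat1 (0.25, adjusted p = 0.0047) and Miat (-0.29, adjusted p = 0.0030) were called too. For both, all E17 libraries lay to one side of all E14 libraries. The shares of all features called in that fit, or set apart in this way, are not given here. The E17 and P1 levels of Snhg11 overlapped. The level rose again from P1 to P6 by 0.40 ± 0.09 (adjusted p = 7.4e-04) and from P6 to P15 by 1.43 ± 0.09 (adjusted p = 7.7e-14), so its rise had a part before birth and a part from P1 to P15. P15, P28 and P60 overlapped.

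Neat1 was low at every age and rose after birth. At E14 it was at 3.90, 3.27 and 3.16 cpm, and at E17 at 3.48, 2.21 and 3.21 cpm. P1 libraries held 4.05, 3.03, 2.601 and 2.84 cpm and P6 libraries 5.37, 4.33 and 4.27 cpm. All P6 libraries were above all earlier ones. At P15 it was at 11.0, 8.82, 8.52 and 8.38 cpm, at P28 at 9.06, 10.8, 11.1 and 8.67 cpm, and at P60 at 10.2 to 15.1 cpm with a median of 12.9. These values rest on 23 to 40 reads per library up to P6 and on 61 to 136 reads from P15, so they carry more counting error than those of the other 5 RNAs. Embryonic and mature libraries did not overlap, as in 40.4% of features tested. The log2 fold change was 1.46 ± 0.11 (limma, adjusted p = 2.6e-13). It was 1.70 with 0.1 added in place of 1, and 1.82 on recovered reads in edgeR with TMM scaling. The called steps were P1 to P6 (0.46 ± 0.17, adjusted p = 0.035) and P6 to P15 (0.85 ± 0.17, adjusted p = 2.7e-04). The step from P1 to P6 did not hold without P1 replicate 2, 3 or 4, without P6 replicate 1 or 2, or in a fit of these 2 ages alone (adjusted p = 0.052 to 0.16).

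Malat1 was by far the most abundant of the 6, taking 0.572% to 1.46% of counted reads in its first entry. E14 libraries held 6542, 6541 and 6553 cpm, and E17 libraries 7964, 7735 and 7648 cpm. At P1 the level was 5716, 6506, 7041 and 6169 cpm, and at P6 8115, 7796 and 8289 cpm. It rose at P15 to 14574, 13641, 13195 and 12051 cpm. P28 libraries held 11625, 12433, 12547 and 12849 cpm. The 6 P60 libraries spread from 7643 to 12771 cpm around a median of 10183. Only P60 replicate 3 fell below the highest embryonic library, so the ranges overlapped by that library. The mature level was 0.73 ± 0.06 higher on the log2 scale (limma, adjusted p = 4.7e-12). The called rises were from P1 to P6 (0.35 ± 0.10, adjusted p = 0.0050) and from P6 to P15 (0.73 ± 0.10, adjusted p = 5.7e-07). P6 libraries overlapped those of E17, however, and in the second entry every P6 library was below every E17 library. From E17 to P1 the change was -0.30 ± 0.10 with an adjusted p of 0.054, which passed with median-of-ratios scaling, in edgeR, with both entries summed, in a fit of these ages alone, and without P1 replicate 3, P15 replicate 4 or P60 replicate 1, 2 or 3 (adjusted p = 0.0060 to 0.048).

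Miat showed the largest change of the 6. E14 libraries held 743, 705 and 761 cpm, E17 libraries 618, 575 and 617 cpm, and P1 libraries 542, 638, 735 and 538 cpm. At P6 the level had dropped to 145, 161 and 175 cpm. P15 libraries held 30.1, 32.7, 33.1 and 35.6 cpm, and P28 libraries 14.5, 22.0, 23.8 and 21.9 cpm. At P60 the level was 18.0 to 36.5 cpm with a median of 22.4. Thus every library up to P1 was above every P6 library, and every P6 library was above every later one. The embryonic mean was 26.0 times the mature mean, and the log2 fold change was -4.68 ± 0.10 (limma, adjusted p = 1.3e-27). It fell from P1 to P6 (-1.92 ± 0.16, adjusted p = 1.5e-11), from P6 to P15 (-2.25 ± 0.16, adjusted p = 9.6e-13) and from P15 to P28 (-0.67 ± 0.15, adjusted p = 0.0074). The last of these steps did not hold without P28 replicate 1, the lowest library of its age (adjusted p = 0.058). The second Miat entry also fell, from 555 ± 9.94 cpm at E14 to 17.4 ± 1.07 at P28 (SD, n = 3 and 4), and from embryonic to mature retina Miat entry 2 fell by 4.45 ± 0.12 on the log2 scale. For its step from P15 to P28 the adjusted p was 0.15. In each library up to P15 it was 62.1% to 85.7% of the first entry, whereas it reached 109% in P28 replicate 1 and spread from 65.3% to 142% over the P60 libraries.

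Gas5 fell in several steps that began around birth. At E14 it was at 106, 116 and 127 cpm, and at E17 at 110.3, 130.0 and 127 cpm. P1 libraries held 95.3, 90.5, 98.5 and 72.3 cpm, all below the embryonic ones. P6 libraries held 56.2, 52.7 and 63.3 cpm. It was at 43.0, 47.0, 39.7 and 43.0 cpm at P15 and at 47.7, 38.6, 34.6 and 47.8 cpm at P28. P60 libraries held 26.2 to 44.5 cpm with a median of 30.5. The ages from P15 on overlapped. From embryonic to mature retina it fell by 1.60 ± 0.09 on the log2 scale (limma, adjusted p = 1.6e-16), and the embryonic mean was 3.11 times the mature one. The called steps were E17 to P1 (-0.46 ± 0.14, adjusted p = 0.036), P1 to P6 (-0.62 ± 0.14, adjusted p = 6.7e-04), P6 to P15 (-0.40 ± 0.14, adjusted p = 0.028) and P28 to P60 (-0.37 ± 0.12, adjusted p = 0.041). The first of these did not hold without E17 replicate 2 or 3 or P1 replicate 2 or 4. The step from P6 to P15 did not hold with median-of-ratios scaling, in edgeR or with the replicate number as a block, nor without P6 replicate 1 or 3 or P15 replicate 3 (adjusted p = 0.056 to 0.14).

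Tug1 had a smaller fall. E14 libraries held 207, 206 and 198 cpm, E17 libraries 191, 205 and 195 cpm, and P1 libraries 182, 161, 180 and 212 cpm, with overlap among these ages. P6 libraries held 130, 161 and 151 cpm. The level was 128, 112, 113 and 83.8 cpm at P15 and 124, 123, 119 and 118 cpm at P28, and P60 libraries held 78.7 to 130 cpm with a median of 98.3. Embryonic and mature libraries did not overlap, as in 40.4% of features tested. From embryonic to mature retina it fell by 0.86 ± 0.08 on the log2 scale (limma, adjusted p = 1.2e-10). P6 to P15 was its only called step (-0.44 ± 0.13, adjusted p = 0.010), and it did not hold without P6 replicate 2 or P15 replicate 4 (adjusted p = 0.059 and 0.067). For P1 to P6 the value was -0.32 ± 0.13 with an adjusted p of 0.057, which passed without P1 replicate 2, P6 replicate 2, P15 replicate 4 or P60 replicate 1, 2 or 3, in a fit of these ages alone, and with the replicate number as a block (-0.34, adjusted p = 0.043).

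Read by step, all 6 changed from P6 to P15, 3 higher and 3 lower, where 14.4% of features were called higher and 19.0% lower. Of these, 5 were called with median-of-ratios scaling, in edgeR, with the block, or without P6 replicate 1, 2 or 3 or P15 replicate 3 or 4, where Gas5 or Tug1 was lost. From P1 to P6, 3 were higher and 2 lower, against 18.0% and 20.4% of features. Before P1 and after P15 few members were called. From E17 to P1 only Gas5 was (features: 5.77% higher, 3.43% lower), and from P15 to P28 only Miat (1.14% higher, 1.58% lower). From P28 to P60, Malat1 and Gas5 were called lower, against 4.80% of features higher and 8.11% lower. These steps share libraries with the ones before and after them.

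**Figure D2:**
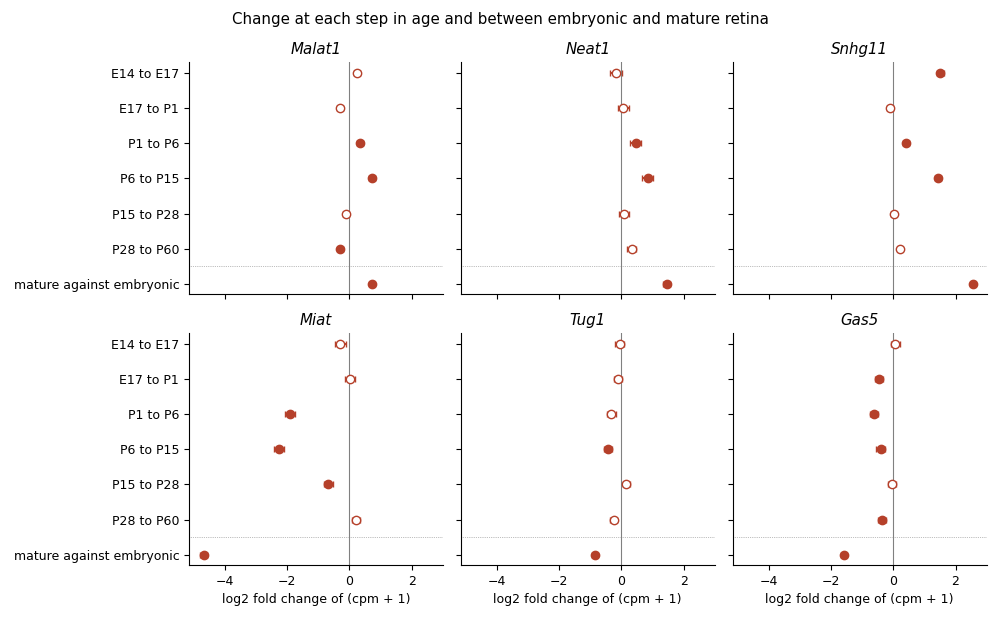
Change of each RNA at every step in age and, below the dotted line, between embryonic (6) and mature (14) libraries, as log2 fold change of cpm + 1 with its SE. Filled points passed an adjusted p of 0.05 in limma. All 6 RNAs are filled at P6 to P15, where Miat falls by 2.25 and Snhg11 rises by 1.43.

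The step from P28 to P60 rested on P60 replicates 3 to 6. From P28 to P60, Malat1 fell by 0.29 ± 0.08 (limma, adjusted p = 0.024). With those 4 libraries left out, it was -0.04 (adjusted p = 0.88), and Gas5 was -0.02 (adjusted p = 0.97). With replicates 1 and 2 left out instead, Malat1 was -0.41 and Gas5 -0.54, and Tug1 (-0.41), Miat (0.37) and Snhg11 (0.32) also passed. Neat1 was not called. The share of all features called in that fit is not given here, so these calls cannot be read against it. Single libraries also decided these calls: that of Malat1 was lost without P28 replicate 2, 3 or 4 or P60 replicate 3, 4 or 5, and that of Gas5 without P28 replicate 1, 2 or 4 or any one of P60 replicates 3 to 6. The Gas5 call was also lost with median-of-ratios scaling and in edgeR, where Snhg11 was called higher. Within P60, Tug1 was at 129 and 130 cpm in replicates 1 and 2 and at 78.7 to 101.3 cpm in replicates 3 to 6. Gas5 was at 38.0 and 44.5 cpm against 26.2 to 31.4 cpm, and Snhg11 at 688 and 759 cpm against 887 to 918 cpm. Neat1 and the first Miat entry overlapped between these libraries, but the second Miat entry was at 13.1 and 14.6 cpm against 23.8 to 32.1 cpm. The 2 sets also differed in Rn18s, as given above, and in mitochondrial reads (1.83% to 2.25% against 1.35% to 1.64%). What sets them apart was not tested. The calls between embryonic and mature retina did not rest on them, since all 6 held with all of P60 left out, with log2 fold changes of 0.85 for Malat1, 1.33 for Neat1, 2.49 for Snhg11, -4.64 for Miat, -0.80 for Tug1 and -1.47 for Gas5.

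The 2 entries of Malat1 parted at P60. Up to P28 the second entry was 10.2% to 14.3% of the first in each library. At P60 it was 16.2% ± 5.11 (SD, n = 6), from 9.78% in replicate 2 to 23.5% in replicate 3. In replicates 3 to 6 the first entry was at 7643 to 10866 cpm and the second at 1566 to 1795 cpm, whereas in replicates 1 and 2 they were at 11305 and 12771 cpm and at 1329 and 1250 cpm. The library with the lowest first entry thus had the highest second one. From P28 to P60 the value of Malat1 entry 2 was 0.12 ± 0.08 (limma, adjusted p = 0.34). It was -0.16 without P60 replicates 3 to 6 (adjusted p = 0.40) and 0.26 without replicates 1 and 2 (adjusted p = 0.0013), and its difference from the first entry was not tested. How reads were divided between entries of one gene is not stated in the sources used here. With both entries summed, embryonic libraries held 7267 to 8901 cpm and mature ones 9438 to 16254 cpm, with no overlap. Of single features tested, 40.4% did not overlap either.

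**Figure D3:**
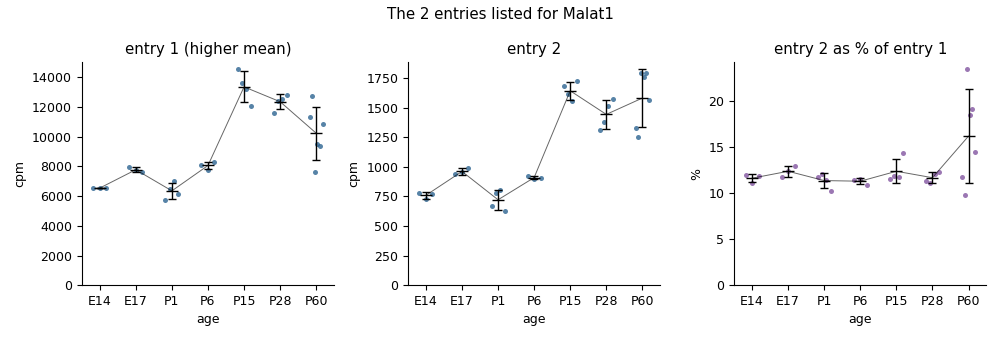
The 2 entries listed for Malat1, in cpm, and the second as a percentage of the first, by age. Points are libraries and bars are the mean ± SD. The percentage stays near 11 to 12 on average up to P28 and spreads from 9.78 to 23.5 at P60.

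Levels of different genes were compared per kb of annotated exon. For Malat1 and Miat the first entry was divided by the exon length of the whole gene. At E14 the order was Malat1 (937 cpm per kb), Miat (79.2), Gas5 (31.0), Tug1 (20.9), Snhg11 (8.82) and Neat1 (0.166), and no neighbours in that order overlapped. At P28 it was Malat1 (1771 cpm per kb), Snhg11 (85.2), Tug1 (12.4), Gas5 (11.2), Miat (2.21) and Neat1 (0.477), with overlap of Tug1 and Gas5 only. Snhg11 moved from place 5 at E14 to place 2 by P6, and Miat from place 2 to place 5 by P15. With both entries summed, Miat was at 139 cpm per kb at E14. At P6 summed Miat (26.4 to 31.1) overlapped Snhg11 (28.4 to 33.4). The value of Neat1 depends on the isoform, since the exon length of 20.8 kb is that of the long transcript. Over the 3004 bases of the short annotated transcript it would be 1.15 cpm per kb at E14 and 3.30 at P28, which is above the first Miat entry at P28 but below both Miat entries summed (4.09). Reads of the short and long Neat1 RNAs were not separated in the table. The values of Gas5, Tug1 and Snhg11 also depend on the length used. Their annotated exons together cover 3760, 9734 and 8521 bases, and their longest transcripts have 2556, 6719 and 5864 bases. The order over other lengths was not tested.

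**Figure D4:**
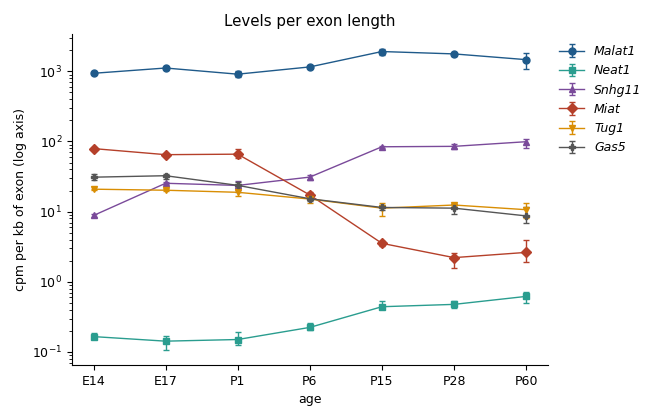
Level per kb of annotated exon (cpm per kb, log axis) of the 6 RNAs by age. Symbols are means and bars span the lowest to the highest library. Malat1 and Miat are drawn from their first entry. Malat1 is highest and Neat1 lowest at every age, and the lines of Snhg11 and Miat cross between P1 and P6.

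Malat1 and Neat1 are neighbours, yet their balance changed. Malat1 was taken by its first entry here. A library held 1677 to 3506 reads of Malat1 per read of Neat1 in embryonic retina (median 2183) and 620 to 1549 in mature retina (median 1140), with no overlap. The Neat1 to Malat1 ratio was 1.07 higher on the log2 scale in mature libraries, a 2.10-fold difference (SD of 0.48 in mature and 0.36 in embryonic libraries; two-sided exact permutation test over all 38760 assignments of 14 and 6 libraries, p = 5.2e-05, the smallest this test can give). The test took libraries as exchangeable, although they come from 2 embryonic and 3 mature ages whose means differ. Its p-value therefore does not take age as the unit. The ratio does not depend on scaling to the total. Malat1 reads per Neat1 read averaged 1465 ± 105 at P15, 1261 ± 162 at P28 and 817 ± 212 at P60 (SD), where replicates 1 and 2 held 1105 and 916 and replicates 3 to 6 held 620 to 986. Without P60 the difference was 0.74 (exact permutation test, p = 0.000666), and without P60 replicates 3 to 6 it was 0.82 (p = 0.00025, same test). Frmd8, a coding gene for a regulator of protease trafficking 4.22 kb from Neat1, went from 4.59 to 8.60 cpm in embryonic to 1.37 to 4.16 cpm in mature libraries (-1.20 ± 0.15, limma, adjusted p = 1.1e-08).

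The other genes gave overlaps that bear on their counts, since the sources used here do not say that counting used the strand. The 5′ end of Tug1 overlaps that of Morc2a, on the opposite strand, by 483 bases, and Morc2a, a chromatin silencing factor, also fell by 0.56 ± 0.05 (adjusted p = 4.2e-11), from 72.3 to 83.3 cpm to 48.0 to 63.4 cpm. Gas5 overlaps Zbtb37 on the opposite strand by 428 bases, and Zbtb37 was at 157 to 194 cpm in embryonic and 125 to 204 cpm in mature libraries (0.00 ± 0.07, adjusted p = 0.99). Serpinc1, the antithrombin gene beside Gas5, had a value of -0.19 ± 0.15 (adjusted p = 0.26). Beside Tug1, Smtn, a smooth muscle cytoskeletal gene, fell by 1.47 ± 0.14 (adjusted p = 2.7e-11), and Osbp2, an oxysterol-binding protein gene, rose from 3.69 to 8.90 cpm to 283 to 431 cpm (5.80 ± 0.08, adjusted p = 3e-33). Ralgapb, a subunit of a Ral GTPase-activating complex 23.7 kb from Snhg11, rose by 0.35 ± 0.05 (adjusted p = 4.9e-08), and Lbp on its other side did not pass the filter. An antisense RNA, Gm26953, overlaps 13.9 kb of the Miat locus and was not analysed here.

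Genes of the protein partners were read against the 40.4% of all features called lower and the 35.0% called higher. Paraspeckle proteins, the partners of Neat1, were lower for 13 of 14 genes (92.9%) and higher for 0, and their median was -0.81 on the log2 scale, against -0.06 over all features. Hnrnpa1, an hnRNP protein of splicing, fell most, from 270 cpm at E14 to 53.8 at P60 (-2.36 ± 0.05, adjusted p = 1e-28). Nono, a core paraspeckle protein, went from 179 to 53.7 cpm (-1.64 ± 0.06, adjusted p = 5.4e-22). The exception was Hnrnph3 (0.01 ± 0.07, adjusted p = 0.86). So Neat1 RNA was higher in mature retina while RNAs of 13 proteins found with it were lower. Of the 16 nuclear speckle and SR protein genes, which share the speckle with Malat1, 10 were lower (62.5%) and 3 higher (18.8%), with a median of -0.62. Srsf7 (-1.33) and Srsf3 (-1.30), which encode small SR splicing factors, fell most, while Srsf5 (0.52) and Son (0.23), the latter a core speckle scaffold, rose most.

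Among 3 splicing factors known to bind Miat, Qk fell from 379 cpm at E14 to 127 at P60 (-1.63 ± 0.08, adjusted p = 1.9e-18) and Sf1, which reads the branch point, fell by 0.54 ± 0.05 (adjusted p = 1.7e-11). Celf3 had a value of 0.08 ± 0.10 (adjusted p = 0.45), but its mean was highest at P6 (152 cpm, against 72.2 at E14 and 92.9 at P60). The median of the 3 was -0.54, and all of these changes were small beside that of Miat itself. Of 14 genes of nonsense-mediated decay and the exon junction complex, 8 were lower (57.1%) and 5 higher (35.7%), the latter near the share of all features, with a median of -0.22. Magoh (-1.80) and Eif4a3 (-1.05), core subunits of the exon junction complex, fell most, and Upf3b (1.20) and Upf3a (0.66), which link that complex to the decay factors, rose most.

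Of 18 other noncoding snoRNA hosts listed, 16 were tested, with 9 lower (56.3%) and 2 higher (12.5%), against 40.4% and 35.0% of all features, and a median of -0.42. Snhg5 (-1.83) and Zfas1 (-1.70) fell most. Some of the lower hosts rest on few reads, with Snhg6 at 1.38 cpm at E14 and 0.573 at P60, and Snhg7 at 1.82 and 0.909 cpm. Snhg20 rose from 18.3 cpm at E14 to 94.9 at P60 (1.68 ± 0.14), and Snhg12 by 0.28 ± 0.12. The snoRNAs of Gas5 (10 names) were not analysed here. The other long noncoding RNAs of neural tissue changed in both directions: of 23 listed, 19 were tested, with 10 higher (52.6%) and 7 lower (36.8%, near the share of all features), and a median of 0.37. Mir124a-1hg, the host of a neuronal microRNA, rose from 156 cpm at E14 to 1554 at P60, with its highest mean at P6 (2.94 ± 0.06, adjusted p = 2.3e-28), and Meg3, an imprinted RNA, from 237 to 2439 cpm (2.46 ± 0.08, adjusted p = 1.2e-22). Six3os1, beside the eye field gene Six3, fell from 330 to 58.8 cpm (-2.42 ± 0.07, adjusted p = 5.5e-25), and Rmst, a partner of Sox2, from 142 to 25.4 cpm (-2.12 ± 0.09, adjusted p = 3.4e-20). These lists were chosen with earlier results of these data known, and the counts are descriptions. They changed by at most 1 gene in either direction with median-of-ratios scaling, in edgeR or without P60 replicates 3 to 6, which are included in the P60 means above, and the median of all features was -0.06 in limma on cpm + 1, 0.00 with median-of-ratios scaling and 0.04 with edgeR.

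**Figure D5:**
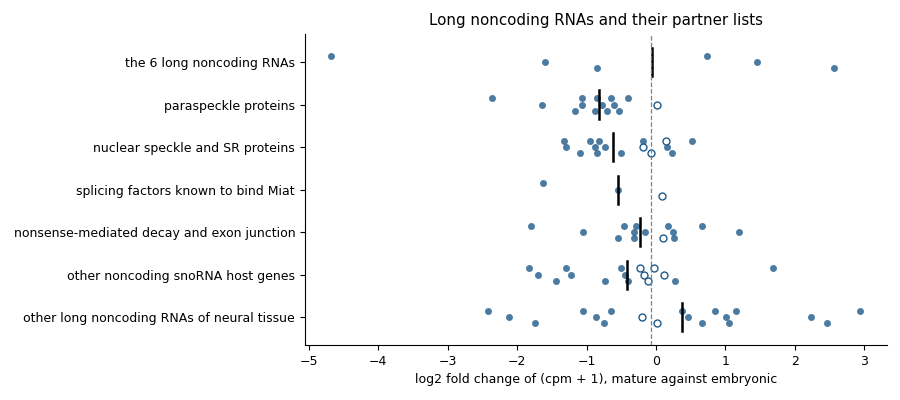
Log2 fold change of cpm + 1 between embryonic and mature retina for the 6 RNAs and 6 lists. Points are genes, filled where the adjusted p was under 0.05, black bars are list medians and the dashed line is the median of all features (-0.06). Paraspeckle protein genes sit left of the line in 13 of 14 cases.

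By likeness over the 27 libraries, each RNA had a different set of nearest genes among 10993 features with a Gene ID and a mean of at least 10 cpm. The 6 RNAs were left out of that set, and the likeness describes profiles that share age and library. Closest to Miat were Stmn1 (Pearson r = 0.993), Nhsl1 (0.992) and Kalrn (0.992), of which Stmn1 and Kalrn act on the cytoskeleton of growing neurites. Closest to Snhg11 were Pacsin1 (0.988), Lrit3 (0.986) and Atp2b2 (0.984), of which Lrit3 is needed at photoreceptor synapses and Atp2b2 pumps calcium. Closest to Gas5 were Ybx1 (0.978), Ppp2r2a (0.972) and Ssb (0.972), and closest to Tug1 were Papola (0.977), Atf2 (0.974) and Cyb5b (0.971). Neat1 came closest to Stard7 (0.971), Crlf3 (0.971) and Ccdc24 (0.971), and Malat1 to A330076H08Rik (0.963), 4932442A14Rik (0.954) and D3Ertd751e (0.947). Among the 6, r ran from -0.95 between Neat1 and Miat to 0.92 between Miat and Gas5, with 0.77 between the neighbours Malat1 and Neat1.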

How the data were processed

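RNA-seq of whole retina was carried out by the authors on total RNA with a SMARTer total RNA kit. Reads were aligned with STAR to mm10, per the submitters' processing notes. The authors deposited 1 table of cpm values (read counts of each feature relative to the counted reads of the library). The annotation used and whether counting used the strand are not given in the sources used here. In every library the values stepped by that of 1 read (100% of them whole within 0.1 read), and the whole reads recovered from the deposited cpm served as counts for edgeR, which called 24062 features between mature and embryonic retina where limma called 23951. In E14 replicate 1 the value of 1 read lay near a round decimal, so edgeR was also run without its reads.

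Limma 3.58.1 with a mean-variance trend was fitted in R 4.3.3 to log2(cpm + 1) of the 31760 features that reached 1 cpm in 3 or more libraries, with age as the factor and all 27 libraries. The contrasts were mature against embryonic and each age against the one before. All features entered the Benjamini-Hochberg adjustment of two-sided p-values, and an adjusted p under 0.05 was called. A fold change on this scale understates that of low genes. Limma p-values and SEs measure the spread between libraries of the same age, and most libraries are pools. In the contrast of mature against embryonic retina, each age of a group had equal weight. Differences among the ages of a group do not enter its SE. Ratios of embryonic and mature means were taken over libraries instead. The ratio test used scipy 1.17.1. Code was tested on simulated data.

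Positions, exon lengths and transcripts came from GENCODE vM21 (GRCm38), and promoters from RefSeq. The 6 genes, the lists and the alternatives were chosen with earlier results of these data known. Named genes were the 6, the 2 largest rises and falls called in each list, the 3 most correlated features of each RNA and their neighbours. Hnrnph3 and Celf3, not called in their lists, and Snhg6 and Snhg7, called at low levels, were named after their values were seen. Some neighbouring genes are not reported here. Alternatives were other pseudocounts, filters, scalings and totals, edgeR 4.0.16, a replicate block, fits of the compared ages, summed entries and each library left out. Added after seeing the data were fits lacking P60, its replicates 3 to 6 or 1 and 2, and the edgeR fit on reads of all but E14 replicate 1. Figures were drawn with matplotlib 3.10.9.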

Additional observations from a re-analysis of the deposited data

Results flagged for a closer look

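A sample far from the rest of its age was looked for in the 8 entries and the Malat1 to Neat1 ratio at the ages with 4 to 6 libraries, 36 groups of values in all. Chance gives about 1 such sample in 20 groups, and 2 were found. Neat1 in P15 replicate 1 was at 11.0 cpm, and the next highest P15 library was at 8.82 cpm. The second Miat entry in P28 replicate 1 was at 15.9 cpm, and the next lowest P28 library was at 17.8 cpm.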

How the results depend on the processing

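All 6 genes kept their direction and their call between embryonic and mature retina under every alternative that gave a value, with log2 fold changes of 0.69 to 0.85 for Malat1, 1.33 to 1.87 for Neat1, 2.49 to 2.69 for Snhg11, -4.78 to -4.60 for Miat, -0.91 to -0.74 for Tug1 and -1.66 to -1.47 for Gas5. A filter at a mean of 10 cpm removed Neat1. The Neat1 to Malat1 ratio kept its direction and call. List counts, run with edgeR, median-of-ratios scaling and without P60 replicates 3 to 6, moved by at most 1 gene, and snoRNA hosts called higher went from 2 to 1 without those replicates. The replicate numbers did not pair libraries: deviations of 3 of the 69 same-numbered pairs correlated above 0.1 (median r = -0.0018), and 3 of 27 libraries correlated best with their own number. With the replicate block, 0 of the 6 were called from E17 to P1 and 0 from P28 to P60, Gas5 lost its call from P6 to P15, and Tug1 gained one from P1 to P6.

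Smaller steps moved more. From E14 to E17, 3 were called in a fit of those ages, and 1 to 2 without a single library. From E17 to P1, 2 were called with median-of-ratios scaling, either edgeR scaling (also without E14 replicate 1), a fit of the compared ages or summed entries, and 0 to 2 without a single library. From P1 to P6, 4 to 6 were called without a single library, and from P6 to P15, 5 to 6. From P15 to P28, 0 to 1 were called without a single library. From P28 to P60, 0 were called in a fit of those ages or without P60 replicates 3 to 6, 5 without replicates 1 and 2, and 0 to 4 without a single library. The shares of all features called at these steps under the alternatives are not given here, and the causes were not tested. Values near 0 changed sign without a call. Miat from E17 to P1 was 0.01, and -0.017 with median-of-ratios scaling, -0.0094 with TMM in edgeR (-0.0094 without E14 replicate 1), -0.0075 with RLE and -0.0065 summed. Gas5 from E14 to E17 was -0.021 in edgeR without E14 replicate 1. Without P60 replicates 3 to 6, Miat was -0.089, Tug1 0.097 and Snhg11 -0.0047 from P28 to P60. Leaving out single libraries gave Miat -0.079 to 0.071 and Neat1 -0.085 to 0.16 from E17 to P1, and Snhg11 -0.015 to 0.062 and Gas5 -0.11 to 0.045 from P15 to P28. Depth limits Neat1 most.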
